A study of Mus musculus with 18 samples.

Results

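Protein prenylation and the neighbouring isoprenoid branches use farnesyl and geranylgeranyl diphosphate, lipids made by the mevalonate pathway. Prenyltransferases attach these lipids to a cysteine near the carboxyl end of proteins such as small GTPases and nuclear lamins, which lets the proteins bind membranes. At a CaaX box, a cysteine followed by 3 residues, a protease then removes those residues and a methyltransferase caps the exposed cysteine. A separate branch lengthens farnesyl diphosphate into dolichol, the lipid carrier of sugars for protein glycosylation.

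The genes described are the 10 members Fnta, Fntb, Pggt1b, Rce1, Zmpste24, Icmt, Ggps1, Dhdds, Nus1 and Rhob, of 55487 genes in the count table. They were chosen by name for their function, with no threshold on a value, by someone who knew the results of these same libraries in all 6 groups. Their levels, fold changes and p-values are therefore a description, and no count among them is independent evidence. All 10 passed the filter on low counts, together with 15371 other genes.

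Expression was measured by RNA sequencing in wild-type mouse embryonic fibroblasts (MEFs, an established line) grown in medium with 1 of 2 fetal bovine sera. Scm held S-FBS, a serum in which MEFs are sensitive to ferroptosis, an iron-dependent death by lipid peroxidation, and Rcm held R-FBS, in which they are resistant. In the 6 groups of 3 libraries, cells stayed in Scm or in Rcm, or were moved from Rcm to Scm (R-Scm) or from Scm to Rcm (S-Rcm) for 12 h or 24 h. No drug was given to any group. The groups without an exchange are labelled 0 h and are not described as receiving fresh medium of the same serum. Between an exchanged group and its starting group, the change of serum, the renewal of medium and the added time in culture therefore cannot be told apart. The test of the difference between the exchanges, below, compares changes that both include renewed medium and added time, which need not act alike in both. One line was used, and nothing in the labels says whether replicates were separate cultures, so p-values measure only the spread between these libraries.

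Libraries held 14534906 to 20313715 counts. The 8 fibroblast markers examined were present in every library, at 53.1 CPM (read counts scaled to the size of each library) or more. Adgre1, Myod1 and Myog had no count in any library, which allows up to 3 counts in each, and no other marker of blood, endothelial, epithelial or muscle cells passed 1.84 CPM except Cd68, at up to 4.91 CPM. Summed fibroblast markers were at 10568 to 11331 CPM in Rcm against 8526 to 8914 in Scm and 8089 to 9523 in R-Scm 12 h. They were at 7969 to 9137 CPM in S-Rcm 12 h, 9103 to 12605 in S-Rcm 24 h and 8327 to 12672 in R-Scm 24 h. In both 24 h groups the highest sum was that of replicate 1, well above the other replicates. The part of these markers in the results below was not tested. R-Scm 24 h replicate 1 stood apart: its mean correlation with its group was 0.969, against 0.974 to 0.988 for the other libraries. Leaving it out raised the number of genes called in R-Scm 24 h against Rcm from 58 to 501, and results that rest on it are given without it too.

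In the fit of all libraries, Icmt and Rhob were the only members called as different between groups, by the criteria below. None of their calls held with a replicate block by the numbers of the count columns. Icmt (isoprenylcysteine carboxyl methyltransferase, the last enzyme of CaaX processing; chr4:152297227-152307121, plus strand, GRCm38) was lowest in Rcm. Rhob, a small GTPase of endosomes that carries either prenyl group (chr12:8497661-8500009, minus strand, a single exon), was highest 12 h after the move from Rcm to Scm. A gene was called where the absolute log2 fold change passed 0.58 and the Benjamini-Hochberg adjusted p of edgeR's quasi-likelihood test over 15381 genes was below 0.05. In R-Scm 12 h against Rcm 2 of 10 members were called, both higher, where 2.74% of all genes were called and 1.51% were called higher. In R-Scm 24 h against Rcm 1 member was called, higher, where the shares over all genes were 0.377% and 0.182%. None was called in Rcm against Scm (2.3% of all genes called), S-Rcm 12 h against Scm (0.858%) or S-Rcm 24 h against Scm (0.338%). Members with an unadjusted p under 0.05 numbered 1, 0 and 0 in these last 3 comparisons, and DESeq2 called 1, 0 and 0. Over all 15381 genes tested, 2498, 2197 and 1247 had an unadjusted p under 0.05 in edgeR there.

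The protein targets of this machinery are recognised by their last residues. The codons for those of Rhob are shown with close relatives and with the other GTPase genes that were called. Each line gives the last 30 coding bases in GRCm38, 5′ to 3′ on the gene's strand, with the 4 codons of the CaaX position in capitals before the stop codon.
Rhob (chr12:8499042-8499071, minus strand): ggctgcatcaactgcTGCAAGGTGCTAtga
Rhoa (chr9:108336792-108336821, plus strand): aagaaaaagtctgggTGCCTCATCTTGtga
Rhoc (chr3:104794014-104794043, plus strand): aagcgccggaggggcTGTCCCATTCTCtga
Rras2 (chr7:114048164-114048193, minus strand): aagaaaggctgccatTGTGTCATTTTCtaa
Rnd1 (chr15:98670597-98670626, minus strand): gaaaaggccaaaagcTGTTCCATCATGtga
The first capital codon encodes cysteine in all 5 genes, which is the residue that is prenylated. The last codon encodes leucine in Rhob, Rhoa and Rhoc, phenylalanine in Rras2 and methionine in Rnd1. A final leucine is a known feature of substrates of GGTase-I (the type I geranylgeranyl transferase), and a final methionine of substrates of farnesyltransferase.

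**Figure D1:**
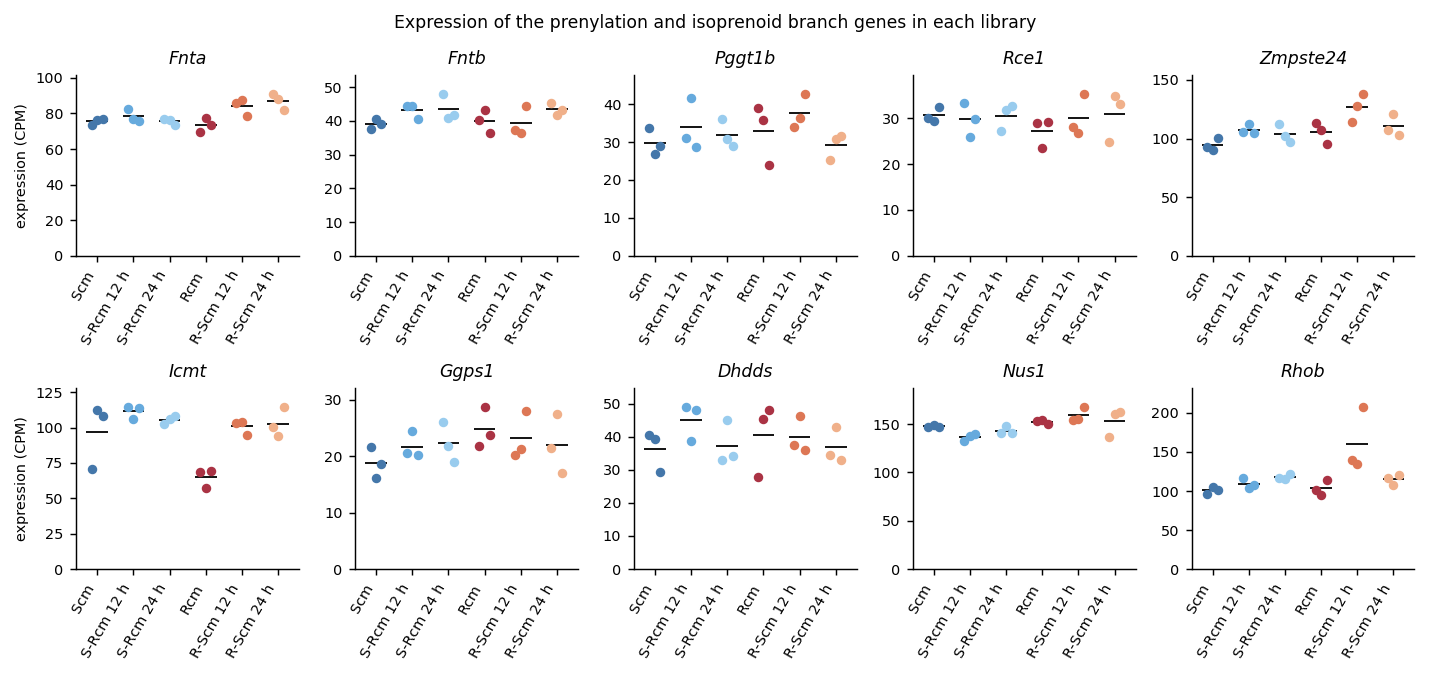
Expression of each member (vertical axis, CPM, from 0) in the 18 libraries by group (horizontal axis). Points are libraries and black bars are means of 3. Icmt lies at 57.2 to 69.3 CPM in Rcm and Rhob at 134 to 207 CPM in R-Scm 12 h.

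Icmt was at 68.5, 57.2 and 69.3 CPM in the 3 Rcm libraries. In Scm it was at 70.9, 113 and 108 CPM. Replicate 1 of Scm lay 1.59 CPM above the highest Rcm library, and the other Scm libraries lay well above both. At 12 h after the move from Rcm to Scm, Icmt was at 104, 104 and 94.98 CPM. At 24 h it was at 100.3, 93.8 and 114 CPM. All 6 exchanged libraries lay above all 3 Rcm libraries, with no overlap at either time. The reverse move left Icmt within or just above the range of Scm, at 114, 106 and 114 CPM at 12 h. At 24 h of that move it was at 102, 106 and 108 CPM, inside the range of Scm. The group mean of Icmt was 65.0 ± 6.80 CPM (SD, n = 3) in Rcm and, in increasing order, 97.2 ± 22.9 in Scm, 101 ± 5.08 in R-Scm 12 h, 103 ± 10.5 in R-Scm 24 h, 105 ± 2.95 for the S-Rcm 24 h libraries and 111 ± 4.80 for those of S-Rcm 12 h. From Scm upward, neighbours in this order overlapped between libraries.

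On the log2 scale Icmt was 0.63 higher in R-Scm 12 h than in Rcm (SE 0.14, 1.55-fold, adjusted p = 0.0121 by edgeR). At 24 h the difference was 0.66 (SE 0.14, 1.58-fold, adjusted p = 0.0451). In Rcm against Scm it was -0.58 (SE 0.14, adjusted p = 0.0292), a size that fell just short of the fold threshold. These 3 comparisons share the same 3 Rcm libraries. Without Scm replicate 1 the last difference was -0.76 (adjusted p = 0.00175) and passed both criteria. Without Rcm replicate 2, the lowest library, Icmt was called at neither time of the exchange (0.55, adjusted p = 0.0736 at 12 h, and 0.58, adjusted p = 0.197 at 24 h). The call at 24 h was also lost without Rcm replicate 1 (adjusted p = 0.119), Rcm replicate 3 (0.0632), R-Scm 24 h replicate 2 (0.0802) or R-Scm 24 h replicate 3 (0.186). It held without the library that stood apart, R-Scm 24 h replicate 1 (0.68, adjusted p = 0.0184). A fit of the compared groups alone gave 0.66 with an adjusted p of 0.331 at 24 h.

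After the move from Scm to Rcm, Icmt differed from Scm by 0.20 at 12 h (95% interval -0.088 to 0.48, adjusted p = 0.555) and by 0.12 at 24 h (-0.17 to 0.40, adjusted p = 0.922). Whether the exchanges differed was tested as the change from Rcm to R-Scm minus the change from Scm to S-Rcm. For Icmt this was 0.44 at 12 h (SE 0.19, adjusted p = 0.296) and 0.54 at 24 h (SE 0.19, adjusted p = 0.217), so a difference between the exchanges was not shown. Without Scm replicate 1 both passed, at 0.62 (adjusted p = 0.0413) and 0.73 (adjusted p = 0.0196). No member passed this test with all libraries, where 2.22% of genes did at 12 h and 1.43% at 24 h, and 2 members had an unadjusted p under 0.05 at each time. Over all 15381 genes tested, 2262 had an unadjusted p under 0.05 at 12 h and 1942 at 24 h. DESeq2 also called 0 members at each time.

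Exons of Icmt share 103 bases with Rnf207 on the opposite strand, which had at most 3 counts in any library. The genes whose log2 CPM followed Icmt most closely over the 18 libraries, of 12370 compared, were Eral1 (Pearson r = 0.82), Zfp46 (0.81) and Tubb3 (0.81). These correlations describe shared libraries and groups, and carry no test. Zfp46, a zinc finger gene, showed the same split inside Scm, at 2.89 CPM in replicate 1 against 18.3 and 16.2 CPM in the others. In Rcm it was at 2.68, 1.66 and 2.08 CPM. It was at 14.4, 2.06 and 12.6 CPM in R-Scm 12 h and at 4.95, 10.9 and 13.5 CPM in R-Scm 24 h. Some of these libraries were thus near Rcm for Zfp46, while Icmt lay above Rcm in all of them. In S-Rcm Zfp46 was at 11.8, 16.25 and 13.2 CPM at 12 h and at 15.4, 13.9 and 16.8 CPM at 24 h. Eral1, which acts in mitochondrial ribosome assembly, ranged from 22.4 to 26.3 CPM in Rcm and from 25.2 to 32.0 CPM in Scm. Tubb3, a tubulin gene best known from neurons, was at 7.36, 6.19 and 9.25 CPM in Rcm and at 16.4, 14.7 and 16.2 CPM in Scm.

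Rhob was at 102, 94.9 and 114 CPM in Rcm and at 96.0, 106 and 102 CPM in Scm, so the steady groups overlapped. In R-Scm 12 h it was at 140.3, 134 and 207 CPM, above every Rcm library, with replicate 3 well above the other two. The R-Scm 24 h libraries held 116, 108 and 120.3 CPM, again overlapping Rcm. The difference from Rcm at 12 h was 0.63 on the log2 scale (SE 0.13, 1.55-fold, adjusted p = 0.00794). At 24 h it was 0.15 (95% interval -0.12 to 0.42, adjusted p = 0.753). The decline between the times, -0.48 (SE 0.13, adjusted p = 0.0827), did not pass. In R-Scm 24 h against R-Scm 12 h no member was called, where 0.774% of genes were, 1 member had an unadjusted p under 0.05 and DESeq2 called 0. Over all 15381 genes tested, 2092 had an unadjusted p under 0.05 there. Without R-Scm 12 h replicate 2 the decline of Rhob passed, at -0.60 (adjusted p = 0.0435).

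The call of Rhob at 12 h depended on the size of the change in replicate 3. Without that library the difference was 0.41 (adjusted p = 0.0234), below the fold threshold. Without Rcm replicate 2 it was 0.578 (adjusted p = 0.0471), also just below it. In a fit of the compared groups alone the difference was 0.65, with an adjusted p of 0.129. In S-Rcm Rhob was at 116, 104 and 108 CPM at 12 h and at 117, 116 and 122 CPM at 24 h. The 24 h libraries lay above all Scm libraries, by 0.23 on the log2 scale (95% interval -0.044 to 0.50, adjusted p = 0.716). The test between the exchanges gave 0.52 at 12 h (SE 0.18, adjusted p = 0.17) and -0.076 at 24 h (SE 0.18, adjusted p = 0.918).

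The genes closest to Rhob over the 18 libraries were Gadd45g (r = 0.95), a growth arrest gene induced by stress, F3 (0.90), which encodes tissue factor, and Cxcl12 (0.90), a chemokine. All 3 had their highest level in the library where Rhob was highest, R-Scm 12 h replicate 3. Gadd45g was at 149 CPM there against 90.2 and 74.0 CPM in the other replicates. F3 was at 336 CPM against 162 and 147 CPM, and Cxcl12 at 228 CPM against 112 and 110.0 CPM. The correlations therefore lean on that library. Summed endothelial and blood cell markers were also highest there, at 3.13 and 5.21 CPM, against at most 1.38 and 4.53 CPM in any other library. Kdr, a receptor, and Cdh5, a junction protein, both of endothelial cells, had 30 and 18 counts in it. Pecam1, the remaining endothelial marker, had at most 4 counts in any library. Cd68 made up most of the blood cell sum, at 4.91 CPM in R-Scm 12 h replicate 3. Ptprc and Csf1r had at most 3 and 6 counts in any library, and Adgre1 had none. The part of these markers in the result was not tested.

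**Figure D2:**
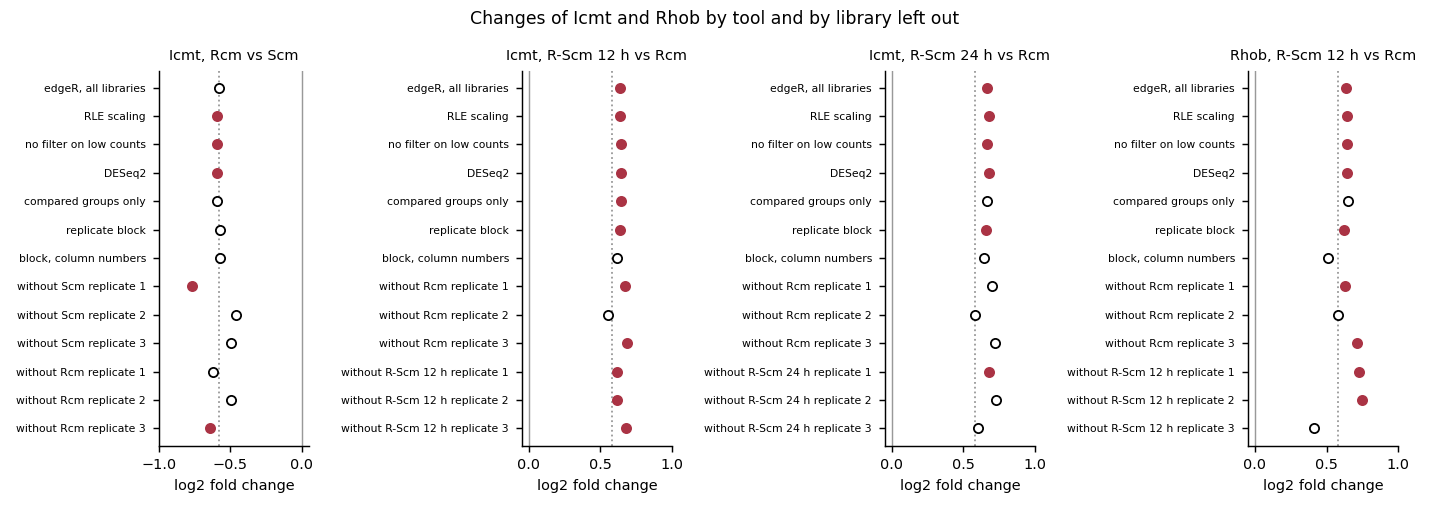
Log2 fold changes (horizontal axis) of Icmt in 3 comparisons and of Rhob in R-Scm 12 h against Rcm, with 1 line for each tool, scaling, replicate block or library left out. Filled points pass both criteria, open points do not, and the dotted line marks 0.58. Rhob falls to 0.41 without R-Scm 12 h replicate 3, and Icmt in Rcm against Scm ranges from -0.76 to -0.46.

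The prenyltransferase subunits showed smaller differences, none of which passed. Fnta encodes the alpha subunit shared by farnesyltransferase and by GGTase-I (chr8:25998722-26015650, minus strand). It was at 69.8, 77.3 and 73.3 CPM in Rcm, at 85.9, 87.4 and 78.6 CPM in R-Scm 12 h and at 91.0, 88.4 and 81.8 CPM in R-Scm 24 h. The exchanged libraries lay above all Rcm libraries at both times. The log2 differences were 0.19 (SE 0.074, adjusted p = 0.165) at 12 h and 0.24 (SE 0.074, adjusted p = 0.188) at 24 h. In Scm and both S-Rcm groups Fnta stayed between 73.5 and 82.4 CPM.

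Fntb, the beta subunit of farnesyltransferase (chr12:76765589-76921412, plus strand), ranged from 36.3 to 48.0 CPM over the 18 libraries. Its largest log2 difference in the 5 comparisons with a steady group was 0.15, and the widest 95% interval reached 0.36. All S-Rcm libraries lay above all Scm libraries, at 44.3, 44.3 and 40.6 CPM at 12 h and 48.0, 40.8 and 41.6 CPM at 24 h against 37.6, 40.6 and 39.1 CPM. The margins were 0.0661 and 0.229 CPM, and the adjusted p was 0.578 and 0.784. Fntb shares 257 exon bases with Churc1 on the same strand, which had 369 to 569 counts, so some reads could have been counted for either gene.

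Pggt1b, the beta subunit of GGTase-I, ranged from 24.0 to 42.7 CPM, and the Rcm libraries alone spanned 24.0 to 39.0 CPM. Its log2 differences lay between -0.17 and 0.19 in the 5 comparisons, with 95% intervals from -0.54 to 0.57. Changes inside the interval of each comparison were not excluded by these libraries. In R-Scm 24 h all libraries were below those of R-Scm 12 h, at 25.4, 30.8 and 31.6 CPM against 33.9, 36.2 and 42.7 CPM (-0.36, SE 0.18, adjusted p = 0.388). Part of Pggt1b is 96.3% identical to Tirap over 109 bases, and Tirap had 399 to 842 counts. Another part is 95.2% identical to Ppm1k over 105 bases, and Ppm1k had 15 to 58 counts.

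Levels of different genes were compared only per exon length, in CPM per kb, with all annotated exons of a gene merged. The median over 18 libraries was 25.6 CPM per kb for Fnta, 10.3 for Fntb and 2.66 for Pggt1b. The shared alpha subunit was at 2.01 ± 0.207 times the sum of both beta subunits (SD, n = 18, range 1.70 to 2.38). Fntb was at 3.83 ± 0.623 times Pggt1b. Both ratios rest on merged exon lengths, which for Pggt1b came to 11749 bases and lower its level where long exons are little used.

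Rce1, the CaaX protease of the endoplasmic reticulum (chr19:4622591-4625641, minus strand), was at 28.9, 23.5 and 29.2 CPM in Rcm and at 30.1, 29.5 and 32.4 CPM in Scm. The Rcm libraries lay just below the Scm libraries, by -0.17 on the log2 scale (SE 0.15, adjusted p = 0.573). In the exchanged groups Rce1 spanned 24.8 to 35.3 CPM and overlapped its starting group in each comparison. Zmpste24, the metalloprotease that also matures prelamin A (chr4:121059237-121098241, minus strand), was at 113, 107 and 95.6 CPM in Rcm. It was at 114, 128 and 138 CPM in R-Scm 12 h, where the lowest library stood 0.75 CPM above the highest Rcm library. The log2 difference was 0.27 (SE 0.094, adjusted p = 0.129), and at 24 h it was 0.069 (adjusted p = 0.872). In S-Rcm 12 h, at 106, 112 and 105 CPM, it lay above Scm, at 92.4, 90.6 and 100.2 CPM, by 0.19 (SE 0.094, adjusted p = 0.377).

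The CaaX enzymes that act before Icmt thus gave no call in a comparison where Icmt did. Per exon length the medians were 19.6 CPM per kb for Icmt, 14.9 for Zmpste24 and 14.3 for Rce1.

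Ggps1 makes geranylgeranyl diphosphate from farnesyl diphosphate (chr13:14050659-14063488, minus strand). It was at 21.9, 28.7 and 23.7 CPM in Rcm and at 21.7, 16.2 and 18.7 CPM in Scm. The groups did not overlap, by a margin of 0.23 CPM, and the log2 difference was 0.39 (SE 0.18, 95% interval -0.0017 to 0.78, adjusted p = 0.309). After the move from Rcm to Scm it was at 20.2, 21.3 and 28.1 CPM at 12 h and at 21.5, 27.4 and 17.0 CPM at 24 h, overlapping Rcm. Ggps1 shares 257 exon bases with Arid4b on the opposite strand, which had 466 to 918 counts. It also has a copy, Gm5630, 97.2% identical over 903 bases, with at most 6 counts. Whether strand was used in counting is not given in the sources used here, so its level is uncertain.

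Dhdds and Nus1 encode the subunits of cis-prenyltransferase, which builds the dolichol chain. Dhdds (chr4:133969028-134000918, minus strand) was variable within groups, at 27.7, 45.4 and 48.1 CPM in Rcm and at 40.6, 39.2 and 29.3 CPM in Scm. At 12 h of the move from Scm to Rcm it was at 48.9, 38.6 and 48.1 CPM, and replicates 1 and 3 lay above every Scm library. Each exchanged group overlapped its starting group, and the log2 differences of Dhdds lay between -0.13 and 0.31. Nus1 (chr10:52417547-52440183, plus strand) was the least variable member in the steady groups, at 153, 154 and 149.8 CPM in Rcm and 147, 149 and 147 CPM in Scm. It was at 133, 138 and 139 CPM in S-Rcm 12 h, below every Scm library, with a log2 difference of -0.11 (SE 0.074, adjusted p = 0.544). The R-Scm 12 h libraries held 155, 155 and 167 CPM, above every Rcm library by a log2 difference of 0.063 (SE 0.074, adjusted p = 0.723). Per exon length Nus1 was at 3.03 ± 0.596 times Dhdds (SD, n = 18).

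In S-Rcm 24 h against S-Rcm 12 h no member was called, none had an unadjusted p under 0.05 and DESeq2 called 0, where edgeR called 0.156% of all genes. Over all 15381 genes tested, 1424 had an unadjusted p under 0.05 there. The 8 members other than Icmt and Rhob gave 40 differences in the 5 comparisons with a steady group. These lay between -0.17 and 0.39 on the log2 scale, the lowest adjusted p was 0.129, and 3 had an unadjusted p under 0.05. Groups that did not overlap were seen for 4 of 10 members in Rcm against Scm (23.9% of all genes), 5 in R-Scm 12 h against Rcm (23.4%) and 2 in R-Scm 24 h against Rcm (11.2%). They were seen for 3 in S-Rcm 12 h against Scm (26.4%) and 2 in S-Rcm 24 h against Scm (19.5%). The medians of the 10 log2 differences were 0.039, 0.17, 0.095, 0.16 and 0.11 in that order, and those of all genes tested were 0.012, -0.0077, -0.0013, 0.019 and 0.0061.

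**Figure D3:**
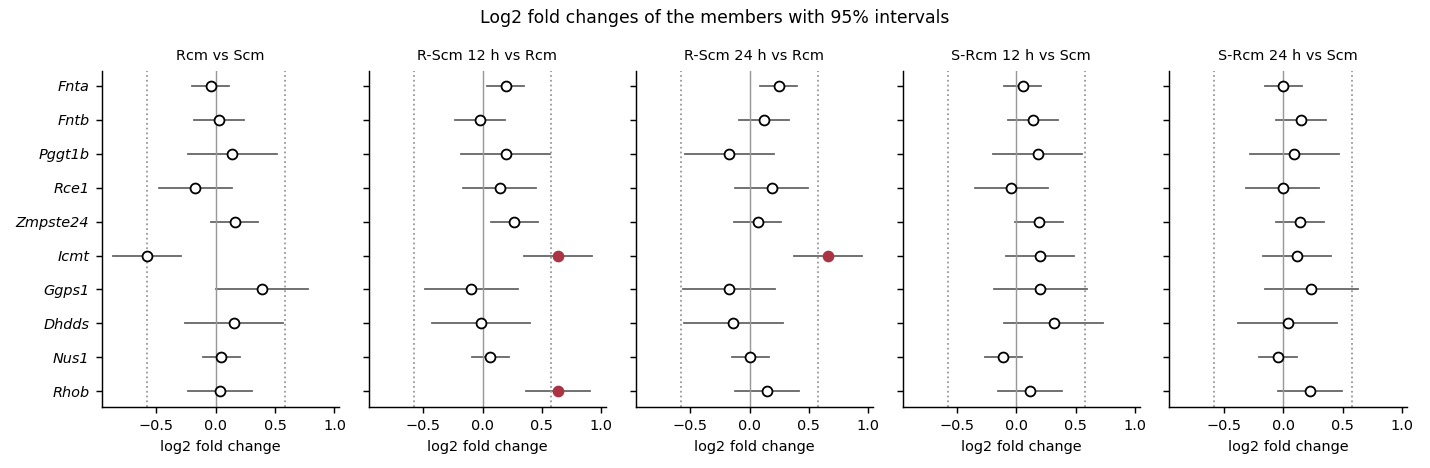
Log2 fold changes of the 10 members (points, horizontal axis) with 95% intervals (lines) in the 5 comparisons with a steady group. Filled points were called and dotted lines mark 0.58 in each direction. Filled points are Icmt at 12 h and 24 h and Rhob at 12 h after the move from Rcm to Scm.

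After the move from Rcm to Scm the genes that supply these branches differed from the members in size and direction. In Rcm, S-Rcm 12 h and S-Rcm 24 h, each against Scm, both medians were positive. They were 0.039, 0.16 and 0.11 for the members and 0.86, 0.16 and 0.53 for the supply genes. The supply list held 6 genes of the mevalonate pathway and its outlet, among them Fdps, which makes farnesyl diphosphate, and Fdft1, which draws it into squalene. In R-Scm 12 h against Rcm all 6 fell, with a median log2 difference of -1.58. Fdps was at 384, 392 and 389 CPM in Rcm and at 106, 103 and 101 CPM in R-Scm 12 h. The difference was -1.91 (SE 0.16, adjusted p = 5.08e-06). Mvd, the diphosphomevalonate decarboxylase, was at 52.4, 54.2 and 67.9 CPM in Rcm and at 19.8, 16.6 and 11.8 CPM in R-Scm 12 h (-1.85, SE 0.22, adjusted p = 0.000127). Idi1, the isopentenyl diphosphate isomerase, was at 249, 271 and 210.4 CPM and then at 75.3, 78.5 and 75.7 CPM (-1.67, SE 0.18, adjusted p = 4.66e-05). No library of Rcm overlapped R-Scm 12 h for any of the 6. The remaining differences were -1.49 for Fdft1, -1.17 for Pmvk and -1.09 for Mvk, and Pmvk and Mvk encode the kinases of phosphomevalonate and mevalonate.

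At 24 h of the same exchange 3 of 6 were called lower, Mvd (-0.99), Idi1 (-0.92) and Fdps (-0.95), with a median of -0.83. Fdps was at 279.8, 161 and 163 CPM, and replicate 1 of R-Scm 24 h, the library that stood apart, was the highest for all 6 genes. Without it all 6 were called lower, from -1.28 to -0.74, while 0 were called without R-Scm 24 h replicate 2 or replicate 3 and 1 without Rcm replicate 1 or replicate 2. In a fit of the compared groups alone 0 were called, and DESeq2 called 5. In Rcm against Scm 3 of 6 were called higher: Idi1 (1.004), Fdps (1.04) and Fdft1 (1.13). The call of Fdft1 was lost without any single library of either group, with log2 differences of 1.05 to 1.25. In S-Rcm 12 h against Scm 0 were called, none had an unadjusted p under 0.05 and DESeq2 called 0. In S-Rcm 24 h against Scm 1 was called higher, Fdps (0.86, SE 0.15, adjusted p = 0.0167), at 370.5, 322 and 336 CPM against 188, 198 and 179.5 CPM. Dropping 1 library at a time removed this call in 5 of 6 fits, among them all 3 without an Scm library, with log2 differences of 0.80 to 0.91. Fdps shares 1124 exon bases with Gm43738 on the same strand and Fdft1 774 with Ctsb on the opposite strand, which had 8043 to 12058 counts.

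Outside the GTPases described below, other users of isoprenoids gave no calls. The 11 other prenyltransferase genes, which serve Rab proteins, ubiquinone, menaquinone, transfer RNA and haem A, gave 0 calls in the 5 comparisons, with differences from -0.23 to 0.35. The 8 further dolichol enzymes gave 0 calls, with differences from -0.70 to 0.30. So did the 3 nuclear lamins, at -0.41 to 0.17, and the 6 carriers that shield prenyl groups in the cytosol, at -0.32 to 0.31. In R-Scm 12 h against Rcm their medians were 0.091, 0.11, -0.11 and 0.10 in that order, beside -1.58 for the supply list. The -0.70 of the dolichol list was found there too, outside the members' range of -0.094 to 0.63. Dpm3, of that list, was at 22.2 to 27.4 CPM in Rcm and at 12.8 to 17.7 CPM in R-Scm 12 h. That is the direction of the supply genes, and Dpm3 was picked after its values were seen. Over the 5 comparisons an unadjusted p under 0.05 was found in 0 of 55 tests in the prenyltransferase list, 2 of 40 in the dolichol list, 1 of 15 for the lamins and 3 of 30 for the carriers. Of all 15381 genes tested, 1247 to 2706 had one in each of the 5 comparisons. DESeq2 called 0 in each of these lists.

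**Figure D4:**
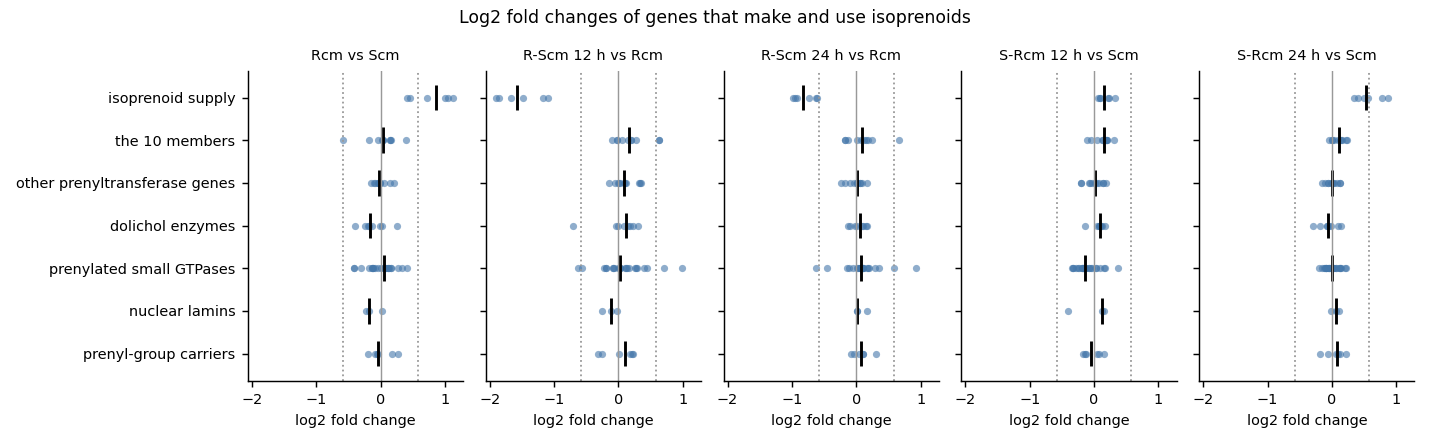
Log2 fold changes (horizontal axis) of the genes of 7 lists in the 5 comparisons with a steady group. Points are genes, black bars list medians, and dotted lines mark 0.58 in each direction. The supply genes lie at -1.91 to -1.09 in R-Scm 12 h against Rcm, while the medians of the other lists lie between -0.11 and 0.17 there.

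Among 24 genes of prenylated GTPases, 23 passed the filter and 2 were called, both higher after the move from Rcm to Scm. Of the 23, 2 were called higher at 12 h and 1 at 24 h. Over all genes 1.51% and 0.182% were called higher at these times. Rras2, a Ras-related GTPase, was at 87.7, 102 and 102 CPM in Rcm, at 160.1, 149 and 165 CPM in R-Scm 12 h and at 121, 158 and 158 CPM in R-Scm 24 h. The groups did not overlap, and the differences were 0.70 at 12 h (SE 0.097, adjusted p = 0.000546) and 0.58 at 24 h (SE 0.097, adjusted p = 0.0106). Without R-Scm 24 h replicate 1 the latter was 0.70 (adjusted p = 0.000135), but the call at 24 h did not hold when Rcm replicate 1 was dropped (0.51, adjusted p = 0.0754), nor when replicate 2 (0.52, 0.0665) or replicate 3 (0.54, 0.0645) of R-Scm 24 h was. The call was also lost in a fit of the compared groups alone (adjusted p = 0.448). In the reverse move Rras2 was at 108, 98.8 and 102 CPM at 12 h against 127, 129.9 and 132 CPM in Scm (-0.34, SE 0.097, adjusted p = 0.109). The exchanges differed, by 1.04 at 12 h (adjusted p = 0.000621) and 0.68 at 24 h (adjusted p = 0.017). The latter did not pass without Scm replicate 3 (adjusted p = 0.0529), Rcm replicate 1 (0.0555) or R-Scm 24 h replicate 2 (0.0537). Rnd1, an atypical member of the small GTPases that lacks GTPase activity, was at 32.4, 40.0 and 41.6 CPM in Rcm and at 74.1, 68.2 and 84.4 CPM in R-Scm 12 h. The difference was 0.99 (SE 0.26, adjusted p = 0.037), and the call was lost without any single library of either group. At 24 h Rnd1 was at 36.7, 79.5 and 101 CPM, where replicate 1 fell within the range of Rcm and the other two lay well above it (0.93, SE 0.26, adjusted p = 0.133). Without that replicate Rnd1 was called, at 1.25 (adjusted p = 0.000421), and DESeq2 called it with all libraries (adjusted p = 0.0164). Lower values in R-Scm 12 h than in Rcm were found too: Rras, a relative of Rras2, differed by -0.57 with no overlap (adjusted p = 0.0378), just short of the fold threshold, and Rnd2, a relative of Rnd1, by -0.63 (adjusted p = 0.114). Both were picked after their values were seen. In R-Scm 12 h against Rcm an unadjusted p under 0.05 was found in 9 of the 23 genes and in 2706 of all 15381 genes tested. It was found in 21 of 115 tests over the 5 comparisons, in each of which 1247 to 2706 of all genes had one. DESeq2 made 4 calls. The median of the 23 genes was 0.028 in R-Scm 12 h against Rcm.

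The promoters of Rhob and Rras2 are shown with that of Mvk because Rhob and Rras2 were higher in R-Scm 12 h than in Rcm while Mvk was lower. Each line gives the 250 bases before the RefSeq gene start in GRCm38.p6, on the gene's strand, with CCAAT or its reverse complement ATTGG, the NF-Y box, in capitals.
Rhob (chr12:8500010-8500259, minus strand): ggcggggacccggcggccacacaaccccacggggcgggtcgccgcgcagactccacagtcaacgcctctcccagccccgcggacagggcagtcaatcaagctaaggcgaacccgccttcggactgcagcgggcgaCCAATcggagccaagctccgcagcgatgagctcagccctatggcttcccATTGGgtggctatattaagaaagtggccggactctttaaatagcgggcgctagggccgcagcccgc
Mvk (chr5:114444019-114444268, plus strand): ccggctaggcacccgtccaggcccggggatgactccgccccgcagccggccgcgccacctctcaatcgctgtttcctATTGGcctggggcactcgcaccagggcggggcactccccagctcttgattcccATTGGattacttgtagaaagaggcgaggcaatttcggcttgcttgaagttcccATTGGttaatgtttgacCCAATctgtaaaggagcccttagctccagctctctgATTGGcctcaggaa
Rras2 (chr7:114117782-114118031, minus strand): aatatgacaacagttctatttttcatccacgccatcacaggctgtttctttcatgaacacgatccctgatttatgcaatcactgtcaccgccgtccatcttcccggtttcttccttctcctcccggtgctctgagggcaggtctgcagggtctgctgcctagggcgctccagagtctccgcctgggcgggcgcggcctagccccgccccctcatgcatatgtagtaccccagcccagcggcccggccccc
CCAAT was found 2 times in the window of Rhob, 5 times in that of Mvk and 0 times in that of Rras2, on either strand.

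RefSeq windows of 300 bases, which reach 50 bases past the start, were given for 8 of 10 members, all but Fnta and Pggt1b. On either strand, CCAAT was in 6 of these 8 genes, all but Icmt and Fntb, and in 37.4% of 32851 promoters. GGGCGG, the GC box, was in 6 of the 8 genes and in 35.7% of promoters and TCACNCCAC, the core of a sterol regulatory element, in 1.24%. TCACNCCAC was in none of the members' windows, nor in those of Mvk, Pmvk, Mvd and Idi1, which were all lower in R-Scm 12 h. No window was given for Fdps and Fdft1, so these supply genes were not searched. The windows given for Icmt and Fntb lie inside these genes as annotated by GENCODE, 18 and 71628 bases from their first base, and neither is shown. One of the windows given for Rce1 also lies inside its gene and holds no CCAAT. These matches describe the letters in the windows only.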

How the data were processed

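The authors deposited raw read counts per gene for 18 libraries, made from paired-end mRNA sequencing reads aligned with HISAT2 to GRCm38. The counting tool, its use of strand and its treatment of reads with several matches are not given in the sources used here. Libraries were grouped by their titles, 3 in each of 6 groups, and no library was left out. Counts were analysed with edgeR 4.0.16 in R 4.3.3: genes were kept by filterByExpr (15381 of 55487), scaled by TMM (factors 0.963 to 1.03) and fitted by the robust quasi-likelihood model on all 18 libraries, with 12 residual degrees of freedom. CPM values use the TMM-scaled library size, and log2 CPM a prior count of 2. Calls required a log2 fold change beyond 0.58 in either direction together with an adjusted p below 0.05, or the adjusted p alone for the difference between exchanges. SE is the log2 fold change divided by the square root of F, and 95% intervals use the fit's degrees of freedom. The script was tested on simulated counts. Totals of 14534906 to 20313715 counts set the precision, and intervals cover the spread between these libraries.

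The members and lists were chosen with earlier results of these data known. All 10 members were named. From each list at most 4 genes called in at least 1 of the 5 comparisons with a steady group were named, by smallest adjusted p, and the supply list in full, apart from 1 gene that is not reported here and is left out of its counts and medians. The 3 genes closest to a called member came from genes with a mean log2 CPM above 1. Within each group the replicates differed beyond counting noise (chi-square divided by its degrees of freedom, 10.2 to 45.0 over 18 pairs). Positions, exon lengths and overlaps came from GENCODE M21 (GRCm38), promoters from RefSeq, and copies from blastn 2.17.0 (95% identity or more). Alternatives were RLE scaling, no filter, adjusted p alone, DESeq2 1.42.0, the compared groups alone, the replicate number as a block, and each library left out.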

Additional observations from a re-analysis of the deposited data

Results flagged for a closer look

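For 6 supply genes and 1 GTPase gene the change after the move from Rcm to Scm differed from the change after the move from Scm to Rcm by edgeR's test of that difference over all genes. At 12 h the log2 difference between the exchanges was -1.31 for Mvk, -1.27 for Pmvk, -2.09 for Mvd, -1.73 for Idi1, -1.996 for Fdps and -1.81 for Fdft1, with adjusted p from 0.00011 to 0.0239. With each of 12 libraries left out in turn, Pmvk no longer passed in 8 fits and Fdft1 in 7, while the other 4 genes passed in all 12. At 24 h it was -1.02 for Mvk, -1.77 for Mvd, -1.42 for Idi1 and -1.81 for Fdps, with adjusted p from 0.000374 to 0.00964. Pmvk (-1.09) and Fdft1 (-1.19) did not pass at 24 h with all libraries. Without R-Scm 24 h replicate 1, the library that stood apart, all 6 supply genes passed at 24 h, from -2.13 to -1.15. Rras2 differed the other way, by 1.04 at 12 h (adjusted p = 0.000621) and 0.68 at 24 h (adjusted p = 0.017). At 24 h Rras2 no longer passed in 3 of 12 such fits, while Mvk, Mvd, Idi1 and Fdps passed in all 12. None of the 10 members passed this test in edgeR: 2 had an unadjusted p under 0.05 at each time and DESeq2 called 0. Of all 15381 genes tested, 2262 had an unadjusted p under 0.05 at 12 h and 1942 at 24 h. Single outlying values inside groups of 3 libraries were not tested, beyond leaving out each library in turn.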

How the results depend on the processing

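Over 600 recomputed values of the 10 members in the 5 comparisons with a steady group, 579 kept their call, 13 lost one, 5 gained one, 3 that were not called moved by more than the SD between replicates and 0 called values changed sign. Values that were not called changed sign in 36 cases, where the reported size was at most 0.18. The number of members called in Rcm against Scm went from 0 to 1 (Icmt) with RLE scaling, with no filter, with adjusted p alone and with DESeq2. With the compared groups alone it was 1 in place of 2 in R-Scm 12 h against Rcm and 0 in place of 1 in R-Scm 24 h against Rcm. Leaving out each library in turn gave 0 to 1 in Rcm against Scm, 0 to 2 in R-Scm 12 h against Rcm and 0 to 1 in R-Scm 24 h against Rcm. It also gave 0 to 1 in R-Scm 24 h against R-Scm 12 h and 0 to 1 for the difference between the exchanges at each time. A smaller group leaves fewer degrees of freedom, and the cause of other changes was not tested. Same-numbered libraries did not deviate together (45 pairs, median correlation -0.012, from -0.30 to 0.48, 14 above 0.1, and 8 of 18 libraries closest to their own number). The replicate number as a block kept the number of members called at 0, 2, 1, 0 and 0 in the 5 comparisons, and genes called over the whole table were 342, 397, 68, 121 and 50 with the block against 354, 421, 58, 132 and 52. The count columns carry other numbers than the titles for 6 exchanged libraries (1, 3 and 4 in place of 1, 2 and 3 in 3 groups). Chosen after seeing the data, the same check with these numbers gave 36 pairs with a median correlation of -0.046 (10 above 0.1, and 4 of 18 libraries closest to their own number), so neither numbering was taken to pair the libraries. A replicate block by the column numbers left 0 members called in each comparison, with Icmt at 0.61 (adjusted p = 0.061) and Rhob at 0.51 (0.0497) in R-Scm 12 h against Rcm and Icmt at 0.64 (0.167) in R-Scm 24 h against Rcm. It called 316, 270, 20, 105 and 11 genes over the whole table. In R-Scm 24 h against Rcm genes called over the whole table were 58 with edgeR, 162 with DESeq2, 4 with the compared groups alone and 14 to 501 with a library left out. In all 9 comparisons DESeq2 and the fit of the compared groups gave other totals too, and in Rcm against Scm these were 488 and 456.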
